A study of Drosophila melanogaster with 11 samples.

Results

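The genes described here are named after proteins of the cytosolic ribosome. They were taken from the table of linear transcripts as rows whose symbol begins with RpL or RpS followed by a digit or by P, with a mean of at least 10 normalized reads over 11 libraries. The pattern found 86 of 13804 linear genes, and 85 passed the mean. RpL37-2, the remaining match, had a mean of 6.0 normalized reads and was left out. By the choice of names, mitochondrial ribosomal proteins (mRpL and mRpS) are not included. Neither are sta and Rack1, which belong to the small ribosomal subunit under other names. RpL24-like and RpLP0-like are included by name, though both are related to yeast assembly factors of the large subunit.

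The ribosome is the particle that reads mRNA and joins amino acids into protein. Its small subunit decodes the mRNA, its large subunit forms the peptide bond, and the acidic stalk proteins of the large subunit recruit the GTPases that drive initiation and elongation. In flies, loss of a single copy of many of these genes gives the Minute phenotype of slow growth and thin bristles. Several proteins have a second gene copy, and some of these paralogues are known mainly from the germ line.

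Total RNA was sequenced after removal of rRNA from heads of wild-type (CS, CantonS) male flies, with about 30 males pooled per replicate by the methods of the study. All flies were raised at 25 °C in 12 h of light and 12 h of dark, mated before the males were separated under CO2, and given 1 day of recovery. The pre-treatment group (n = 3) was frozen then, and the other groups were frozen after 10 days at 18 °C (n = 3), 25 °C (n = 2) or 29 °C (n = 3). Every exposed group is therefore also 10 days older than the pre-treatment flies. The tissue label is head, while the design text speaks in part of brains. The methods of the study give heads for every experiment apart from its brain/head ratios. All 10 markers of neurons, photoreceptors and glia were detected in every library, which alone does not tell head from brain. Values are normalized reads, that is reads per gene divided by a size factor of the library. In bulk tissue, fewer cells of a type and less RNA per cell cannot be told apart.

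The libraries differed in depth and in ways that touch these genes. Linear reads ranged from 32.0 M to 52.4 M before treatment, from 51.0 M to 123 M at 18 °C, from 56.4 M to 62.9 M at 25 °C and from 54.0 M to 76.8 M at 29 °C. In each group the library with the fewest reads had higher values for most ribosomal protein genes than the mean of the other libraries of its group. This held for 56 of 85 genes in pre-treatment replicate 3, 76 in 18 °C replicate 3, 72 in 25 °C replicate 2 and 69 in 29 °C replicate 2. The median log2 ratios were 0.19, 0.27, 0.30 and 0.12 in that order, against medians between -0.01 and 0.00 over 12676 genes. Among the 1228 other genes with a mean of 10000 or more, the same ratio had medians between -0.04 and 0.00. Size factors hold the median over all genes near 0, so that contrast cannot show whether a shift is particular to these genes. Over all genes the quartiles of the ratio were -0.29 and 0.26 in pre-treatment replicate 3. Deviations of the libraries with fewest reads from their group means correlated across groups at 0.31 to 0.47 over all genes tested. In addition, 25 °C replicate 1 held few reads from ribosomal protein genes with short coding regions, as given below. The part of depth and of these libraries in the results was not tested, and results that change without them are given both ways.

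Ribosomal protein transcripts were among the abundant RNAs of the head. Of the 85 genes, 80 were classed as major and 5 as low paralogues, which are genes under 10% of the most abundant gene of their family or named as "-like". Of the major genes, 45 encode large subunit proteins, 32 small subunit proteins and 3 stalk proteins. Their means over 11 libraries ran from 2389 normalized reads for RpL39 to 88696 for RpL23A, with a median of 41003, and 77 of 80 exceeded 10000. Among the highest were RpL23A (88696), RpL5 (82001), RpLP2 (74515), RpL7A (74102) and RpS26 (65202). RpL5 binds the 5S rRNA, and RpL23A lies at the exit of the tunnel through which the new protein leaves. For scale, the rhodopsin gene ninaE averaged 1133800 normalized reads.

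Levels between genes were compared per kilobase of exon. On that scale the major genes ran from 8295 normalized reads per kb for RpL39 to 123369 for RpLP2, with quartiles of 34923 and 53638. RpLP2, RpL23 (104785 per kb) and RpL41 (96000 per kb) were the highest, and RpL39, RpL34a (11082 per kb) and RpL38 (13646 per kb) the lowest. The subunits are made in equal numbers in a ribosome, apart from the stalk, but the transcripts per kb were not equal. The proteins of the major genes had 25 amino acids (RpL41) to 416 (RpL3), with a median of 155. The genes were spread over the genome, with 17 on chromosome arm 2L, 19 on 2R, 14 on 3L, 20 on 3R, 14 on X and 1, RpS3A, on chromosome 4. In 28 of them the annotation places snoRNA genes on the same strand, 74 in all, with 14 in RpS5a and 7 in RpS7. Another annotated gene overlaps 33 of the 85. The strand setting of the read counting is not given in the sources used here, so reads of overlapping genes may not be separated.

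**Figure D1:**
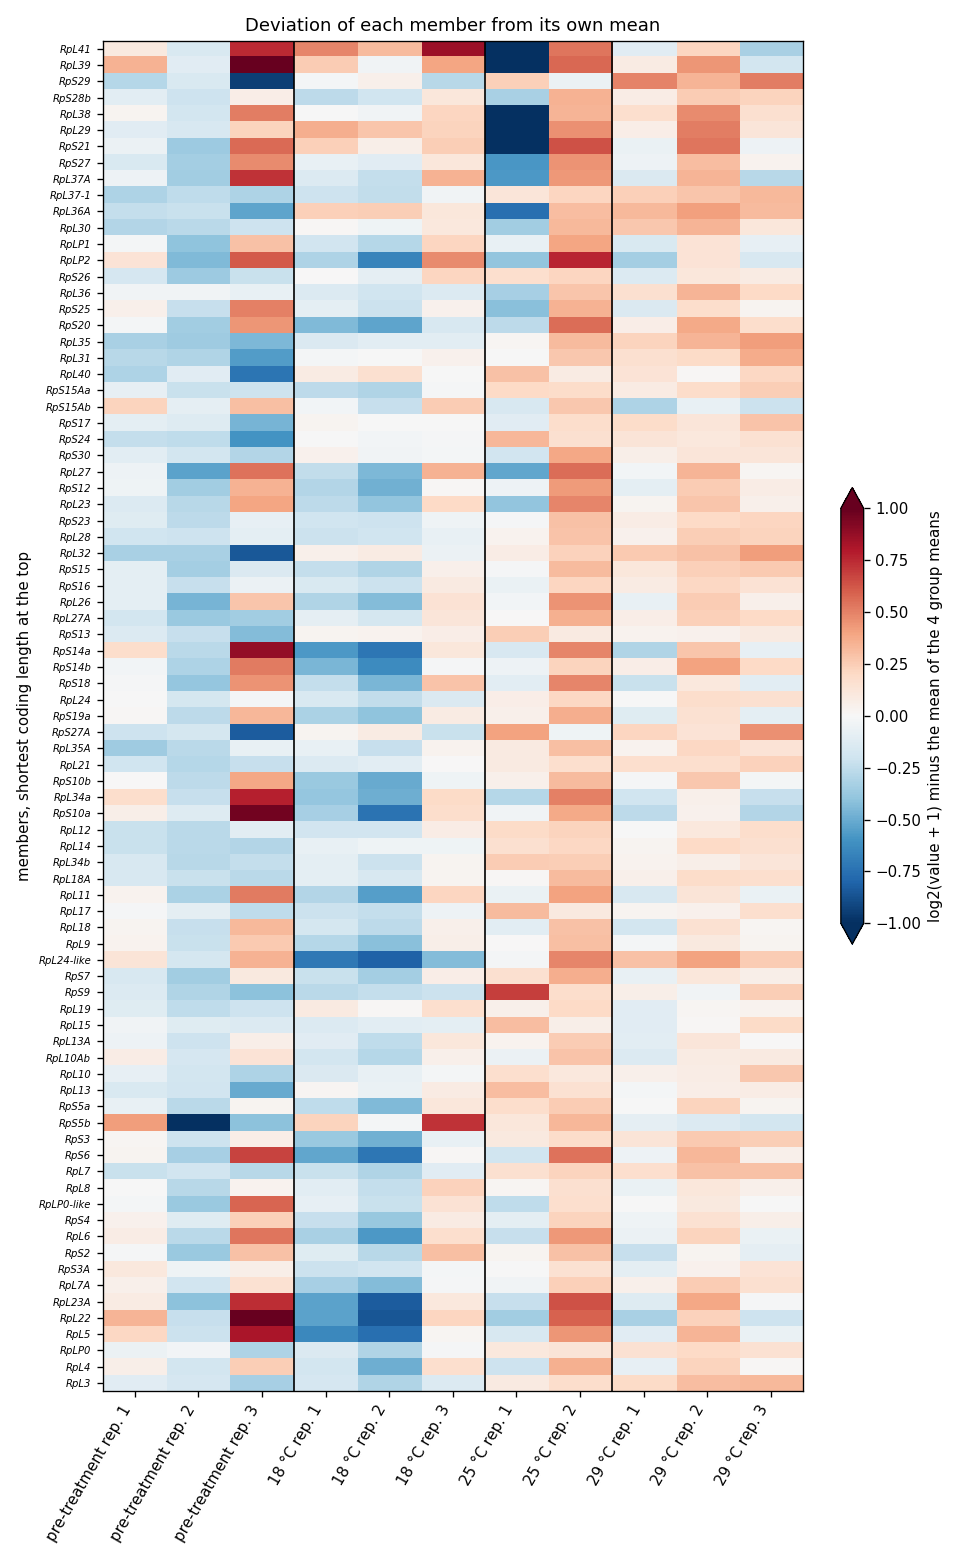
Deviation of each ribosomal protein gene drawn (all but those whose single-gene results are not reported here) in each library from its own mean over the 4 groups, on the log2(value + 1) scale (colour), with genes ordered by coding length from short at the top. On average the 18 °C and pre-treatment columns are bluer than the 25 °C and 29 °C columns, but single libraries overlap. Summed normalized reads of all ribosomal protein genes were 3496910 in 18 °C replicate 3 and 3646450 in pre-treatment replicate 3. Both lie above 25 °C replicate 1 (3238820) and 29 °C replicate 1 (3319400). Pre-treatment replicate 3 has strong shifts both ways, and 25 °C replicate 1 is dark blue for most of the shortest genes.

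Together the 85 genes held 5.34%, 4.64% and 5.71% of all linear values in the pre-treatment libraries and 4.90%, 4.65% and 5.75% at 18 °C. They held 5.63% and 6.92% at 25 °C and 5.84%, 6.50% and 6.20% at 29 °C. On this share the 29 °C libraries all lay above the 18 °C and pre-treatment libraries, and the 25 °C libraries overlapped with the 18 °C and pre-treatment ones. In summed normalized reads the 29 °C libraries (3319400 to 3821030) overlapped with those at 18 °C (2721220 to 3496910) and before treatment (2775010 to 3646450). The mean share was 5.23% ± 0.540 (SD, n = 3) in pre-treatment flies and 5.10% ± 0.575 (n = 3) in those kept at 18 °C. It was 6.28% ± 0.913 (n = 2) in flies kept at 25 °C, and for 29 °C it was 6.18% ± 0.329 (n = 3). Gene by gene, the highest group mean was at 25 °C in 41 genes and at 29 °C in 29, before treatment in 11 and at 18 °C in 4. The lowest group mean was at 18 °C in 42 genes and before treatment in 34, at 25 °C in 5 and at 29 °C in 4. These are descriptions, and single genes were tested as follows.

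The comparison of flies kept at 29 °C with flies kept at 18 °C gave small positive differences across most of the genes. Only RpL24-like and RpS3 were called, both higher at 29 °C, and none was called lower (a call needs a Benjamini-Hochberg adjusted p under 0.05 in limma over all 12676 genes and a log2 fold change above 0.5 in size). Over all genes tested, 5.36% were called higher and 5.29% lower. The median log2 fold change over the 85 genes was 0.22, against -0.00 over all genes, and 75 of 85 were above 0, against 49.6% of all genes. All libraries at 29 °C lay above all at 18 °C for 35 genes and below them for 2, while over all genes these shares were 21.1% and 21.9%. At an adjusted p under 0.05 without the fold threshold, 13 were higher and 0 lower (8.37% and 9.72% of all genes), including RpL3 (log2 fold change 0.48), RpL7 (0.46), RpL35 (0.45) and RpL37-1 (0.44). The 45 large subunit genes had a median of 0.22 and the 32 small subunit genes 0.29, a difference that was not tested. RpS14b (0.59), RpS20 (0.58), RpS29 (0.53) and RpS6 (0.52) had values as large as that of RpS3, with limma's adjusted p from 0.0736 to 0.247, and were not called. RpL41, at -0.63 (adjusted p = 0.459), was the only major gene below -0.5. Without 18 °C replicate 3, 7 genes were called, against 9.44% of all genes. Without pre-treatment replicate 3 or 29 °C replicate 1, 4 were, against 11.8% and 8.11% of all genes. Without the library with fewest reads in each group, 10 genes were called and the median was 0.28, while 12.3% of all genes were called in that fit. With read depth as a covariate the median was 0.14 and RpS3 was no longer called.

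RpL24-like showed the largest difference. Its protein resembles RpL24, and the yeast counterpart, Rlp24, is an assembly factor that holds the place of the ribosomal protein in the precursor of the large subunit before RpL24 takes it. The gene (FBgn0037899; dm6, 3R, 11430740 to 11431582, minus strand, 2 exons, 191 amino acids) overlaps Dtd in the annotation. Its pre-treatment libraries held 8851, 7156 and 10302 normalized reads, and those at 18 °C held 4923, 4631 and 5995. The libraries at 25 °C held 7982 and 11341, and those at 29 °C held 9926, 10726 and 9670. Every library at 18 °C was below every other library, and the other groups overlapped. The mean at 29 °C was 1.95-fold that at 18 °C (10107 ± 551 against 5183 ± 718, SD, n = 3 each), a log2 fold change of 0.97 ± 0.16 (SE) with limma's adjusted p = 0.00213. It was also called lower at 18 °C than before treatment (1.69-fold, log2 fold change -0.75 ± 0.16 SE, adjusted p = 0.0108) and lower than at 25 °C (1.86-fold, -0.89 ± 0.18 SE, adjusted p = 0.0204). The difference between 29 and 18 °C was called under all 22 alternatives of test, scaling and libraries. The difference from pre-treatment was lost with depth as a covariate (log2 fold change -0.32). The difference from 25 °C was lost in 4 of 22, which were the fit of these groups alone and those without 18 °C replicate 1 or 2 or 25 °C replicate 2. RpL24 itself, at 36418, 33970 and 36520 at 18 °C and 40216, 45596 and 45058 at 29 °C, was 0.29 higher on the log2 scale and was not called.

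RpS3, the other gene called, encodes a small subunit protein at the site where mRNA enters the ribosome, and in flies it also has a DNA repair activity (dm6, 3R, 23358812 to 23360207, plus strand). It held 46054, 39434 and 47617 normalized reads before treatment, 35163, 32697 and 43287 at 18 °C, 48615 and 51722 at 25 °C, and 49786, 54604 and 54029 at 29 °C. The libraries at 29 °C were all above those at 18 °C, while 18 °C and pre-treatment overlapped. The log2 fold change was 0.52 ± 0.11 (SE) with limma's adjusted p = 0.00881, close to the fold threshold of 0.5. The call was lost in 4 of 22 alternatives, which were the depth covariate and the fits without 18 °C replicate 1 or 2 or without 29 °C replicate 2, where the log2 fold change was as low as 0.42.

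**Figure D2:**
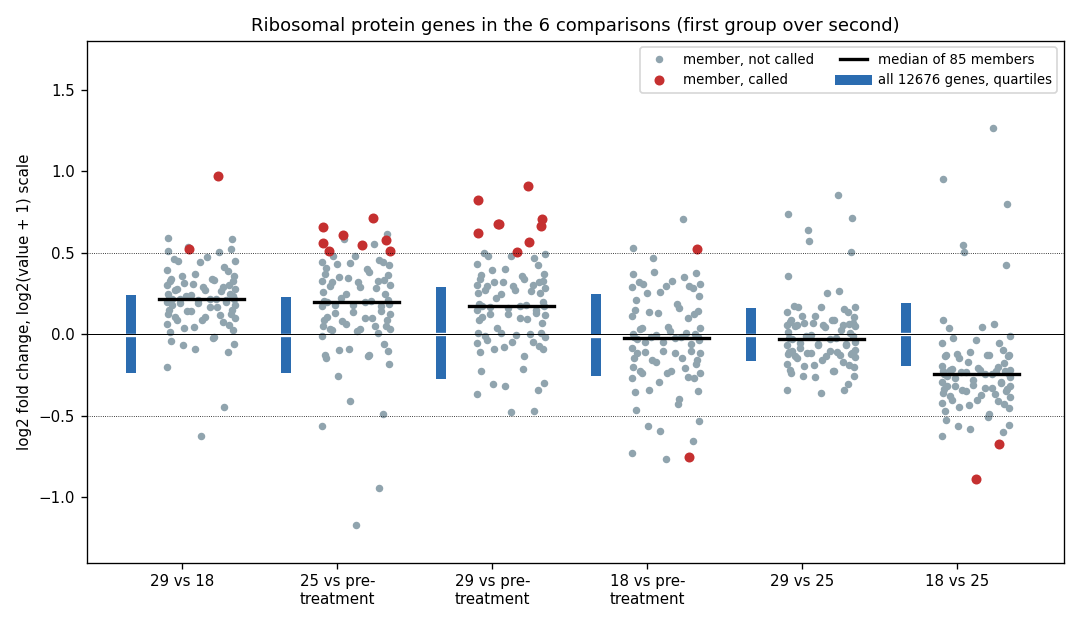
log2 fold changes of the 85 ribosomal protein genes in 6 comparisons (points, first group over second, red where called; black line, median) beside the quartiles of all 12676 genes tested (blue bar, white mark at the median). The medians lie at 0.22, 0.20 and 0.18 for 29 vs 18 °C, 25 °C vs pre-treatment and 29 °C vs pre-treatment, at -0.02 and -0.03 for 18 °C vs pre-treatment and 29 vs 25 °C, and at -0.24 for 18 vs 25 °C.

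Flies kept for 10 days at 25 °C, the temperature at which they were raised, were compared with the pre-treatment flies. In this comparison 8 genes were called higher and 0 lower, against 2.77% and 2.66% of all genes. Among the 8 were RpS9 (log2 fold change 0.71), RpL32 (0.66), RpS24 (0.61), RpL40 (0.58), RpL35 (0.55), RpL13 (0.51) and RpL31 (0.51), and limma's adjusted p over the 8 ran from 0.00613 to 0.0477. The median over the 85 genes was 0.20, and 69 were above 0, against 48.8% of all genes. In 35 both libraries at 25 °C lay above all pre-treatment libraries and in 0 below them, against 14.3% and 16.1% of all genes. At an adjusted p under 0.05 with any fold, 22 were higher and 0 lower, against 3.81% and 4.43%. The lowest values were those of RpL39 (-1.17), RpL41 (-0.94), RpL38 (-0.56), RpL29 (-0.49) and RpS21 (-0.41), all with limma's adjusted p above 0.29. The group at 25 °C has 2 libraries, and the median depended on which was used. It was 0.40 without 25 °C replicate 1 and 0.02 without 25 °C replicate 2. Without pre-treatment replicate 3, 3 genes were called, with RpS9 and RpL35 among them, against 4.5% of all genes. In a fit of these groups alone none was called, where 0.947% of all genes were. With the depth covariate 18 were called and the median was 0.39, against 5.51% of all genes called. RpS9 was called in 20 of 22 alternatives, RpS24 and RpL35 in 19, RpL13 in 17, RpL32 and RpL31 in 16 and RpL40 in only 7.

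RpS9 is a small subunit protein known for a role in translational fidelity, and its gene overlaps an annotated antisense RNA, asRNA:CR45874 (dm6, 3L, 9509793 to 9511531). It held 16274, 14515 and 13449 normalized reads before treatment, 14816, 15154 and 15378 at 18 °C, 28804 and 20134 at 25 °C, and 18623, 17415 and 21162 at 29 °C. The pre-treatment and 18 °C libraries lay together and all below those at 25 and 29 °C. It was the only major gene called between 18 and 25 °C (log2 fold change -0.67 ± 0.14 SE, limma's adjusted p = 0.0257), and both calls at 25 °C were lost without 25 °C replicate 1, the library at 28804, and in fits of the compared groups alone. The call against 18 °C was also lost without any single 18 °C library, and so in 5 of 22 alternatives.

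The comparison of 29 °C with pre-treatment, in which age and temperature both differ, called 9 genes higher and 0 lower, against 5.92% and 6.89% of all genes. Among them were RpS29 (log2 fold change 0.91), RpL32 (0.82), RpL35 (0.70), RpL36A (0.68), RpS27A (0.67), RpL31 (0.62), RpL37-1 (0.57) and RpL40 (0.51), and limma's adjusted p over the 9 ran from 0.00032 to 0.0431. RpL40 and RpS27A encode fusions of a ribosomal protein with ubiquitin, so their transcripts supply both. The median over the 85 genes was 0.18, and 63 were above 0, against 50.5% of all genes. All libraries at 29 °C lay above all pre-treatment libraries in 38 genes and below in 0, against 19.3% and 21.9% of all genes. Below 0, RpL22 (-0.48) and RpL34a (-0.37) were the lowest major genes, with limma's adjusted p of 0.378 and 0.376. At an adjusted p under 0.05 with any fold, 29 were higher and 0 lower, against 9.35% and 12.2%. RpS29, RpL32, RpL35, RpL31 and RpL37-1 were called under all 22 alternatives, while RpL40 was called in 14, RpL36A in 12 and RpS27A in 18. Scaling each library to its sum gave 16 calls (13% of all genes) and the depth covariate 16 (10.4% of all genes), of which 6 were among the first 9.

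RpS29 is a small zinc-binding protein of the small subunit (dm6, 3R, 9778042 to 9779528, overlapping the antisense RNA asRNA:CR31514). It held 32338, 35445 and 20457 normalized reads before treatment, 38807, 40710 and 32529 at 18 °C, 46474 and 37872 at 25 °C, and 55500, 49894 and 56064 at 29 °C. The 29 °C libraries were above all others, and the pre-treatment library at 20457 was the one with fewest reads in the series. The mean at 29 °C was 1.83-fold that before treatment.

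RpL32, also known as rp49, is widely used as a reference gene for RT-qPCR in flies (dm6, 3R, 30045229 to 30046161, minus strand). It held 28365, 28437 and 19741 normalized reads before treatment, 36835, 37669 and 34116 at 18 °C, 37533 and 41824 at 25 °C, and 42739, 43506 and 47454 at 29 °C. All 8 libraries of exposed flies lay above the pre-treatment libraries, and those at 29 °C lay above those at 18 and 25 °C. It was the only gene of the 85 called higher in all 3 comparisons with pre-treatment, which share those 3 libraries, at 1.75-fold for 29 °C, 1.56-fold for 25 °C and 1.42-fold for 18 °C by group means. Without pre-treatment replicate 3, the call remained at 29 °C and was lost at 25 and 18 °C.

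RpL35, on the X chromosome (5672401 to 5673547), lies at the tunnel exit of the large subunit. It held 22757, 22341 and 20852 normalized reads before treatment, 25812, 26481 and 26497 at 18 °C, 29000 and 35595 at 25 °C, and 33315, 36062 and 38162 at 29 °C. Its pre-treatment, 18 °C and warmer libraries lay in that order without overlap, and the 25 and 29 °C groups overlapped. RpL37-1, a zinc-binding large subunit protein, held 37710, 39166 and 37706 before treatment, 40399, 39207 and 45571 at 18 °C, 50788 and 54058 at 25 °C, and 54799, 56387 and 58381 at 29 °C. Its libraries at 25 and 29 °C did not overlap with any cooler or younger library, and its SD before treatment was 842 normalized reads.

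**Figure D3:**
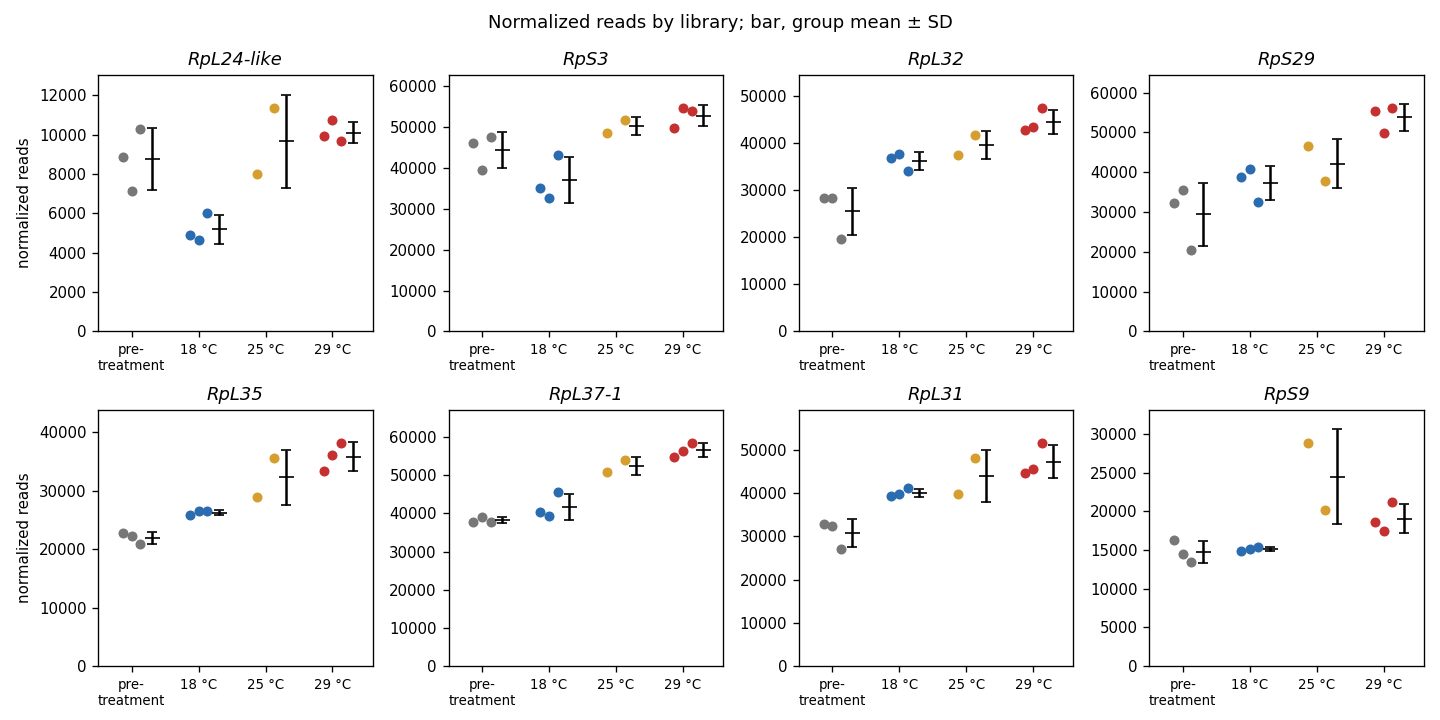
Normalized reads of 8 ribosomal protein genes, RpL31 among them, in each library by group (points), with the group mean ± SD beside them, on axes that start at 0. RpL24-like is lowest at 18 °C (4631 to 5995), RpL32 lies lowest before treatment (19741 to 28437), and the 25 °C libraries of RpS9 (28804 and 20134) differ widely.

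Flies kept at 18 °C for 10 days differed little from the pre-treatment flies in these genes. RpL32 was called higher (log2 fold change 0.52, limma's adjusted p = 0.0226) and RpL24-like lower, against 4.69% and 4.44% of all genes. The median was -0.02, and 37 of 85 were above 0, against 49% of all genes. The groups did not overlap in 20 genes that were higher and 2 that were lower at 18 °C, against 14.9% and 16.7% of all genes. At an adjusted p under 0.05 with any fold, 8 were higher and 1 lower, against 7.85% and 8.1%. The largest negative values among major genes were those of RpL22 (-0.76, limma's adjusted p = 0.184), RpL5 (-0.73, adjusted p = 0.113) and RpS14a (-0.66, adjusted p = 0.184), and none of these was called. RpL22 held 68041, 45881 and 107760 normalized reads before treatment and 37086, 29734 and 62437 at 18 °C, so that its groups overlapped and the shallowest library of each was the highest. RpL36A (0.53, adjusted p = 0.116) had a value as large as that of RpL32 and was not called. Without pre-treatment replicate 1 or 2, 3 and 4 genes were called, against 7.13% and 11.2% of all genes. RpL24-like alone was called without pre-treatment replicate 3 or 18 °C replicate 1 or 2, against 7.37%, 5.66% and 6.18%. The depth covariate moved the median to 0.28 and called RpS2 and RpS26 in place of RpL32 and RpL24-like, against 8.66% of all genes.

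Between 29 and 25 °C none of the 85 genes was called by limma, edgeR or DESeq2, against 0.245% of all genes called higher and 0.394% lower by limma, and 3 had an unadjusted p under 0.05. With any fold, 0 had an adjusted p under 0.05, against 0.323% higher and 0.497% lower of all genes. The median was -0.03, and 37 were above 0, against 48.9%. Groups did not overlap in 7 genes that were higher and 9 that were lower at 29 °C, against 13.3% and 14.1% of all genes. Between 18 and 25 °C, RpL24-like and RpS9 were called lower at 18 °C and none higher, against 1.68% and 1.55% of all genes. Here the median was -0.24, and 10 genes were above 0, against 50.3% of all genes. In 28 both libraries at 25 °C lay above all libraries at 18 °C and in 0 below them, against 15.8% and 15.9%. At an adjusted p under 0.05 with any fold, 5 were lower and 0 higher at 18 °C, against 2.34% and 2.3%. Without 25 °C replicate 2 the median was 0.13 for 29 vs 25 °C and -0.14 for 18 vs 25 °C. Without 18 °C replicate 1 or 2, 0 were called between 18 and 25 °C, against 1.64% and 2.27% of all genes. The highest values against 25 °C with all libraries were those of short genes, RpL39 (0.86), RpL29 (0.74) and RpL38 (0.71) at 29 °C and RpL41 (1.27), RpL39 (0.95) and RpL29 (0.80) at 18 °C, with limma's adjusted p from 0.272 to 0.752. The 6 comparisons share their groups and are not independent of each other.

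The 25 °C libraries differed most in the shortest genes, among them RpL41, RpL39, RpL29, RpL38 and RpS21. In replicate 1, the 8 genes with under 260 nt of coding sequence had a median of 30% of their value in replicate 2. RpL41, which encodes a peptide of 25 amino acids, held 6821 normalized reads in replicate 1 and 38629 in replicate 2, and RpL39 held 491 and 3070. RpL29 held 3101 and 11811, RpL38 held 5515 and 16344, and RpS21 held 5476 and 22005. RpS29, also of this length class, was the exception at 122.7%. In the other groups RpL41 held 23927 to 44682 before treatment, 33130 to 48180 at 18 °C and 21276 to 30921 at 29 °C, all above 25 °C replicate 1. The other length classes had medians of 76.1% (260 to under 450 nt, 28 genes), 84.8% (450 to under 600 nt, 24 genes) and 85.8% (600 nt or more, 25 genes). Among genes outside the ribosome with a mean of 1000 or more, 75 with under 260 nt of coding sequence had a median of 77.0% with quartiles of 42.1% and 116%, and longer classes had medians of 98.9% to 102%.

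**Figure D4:**
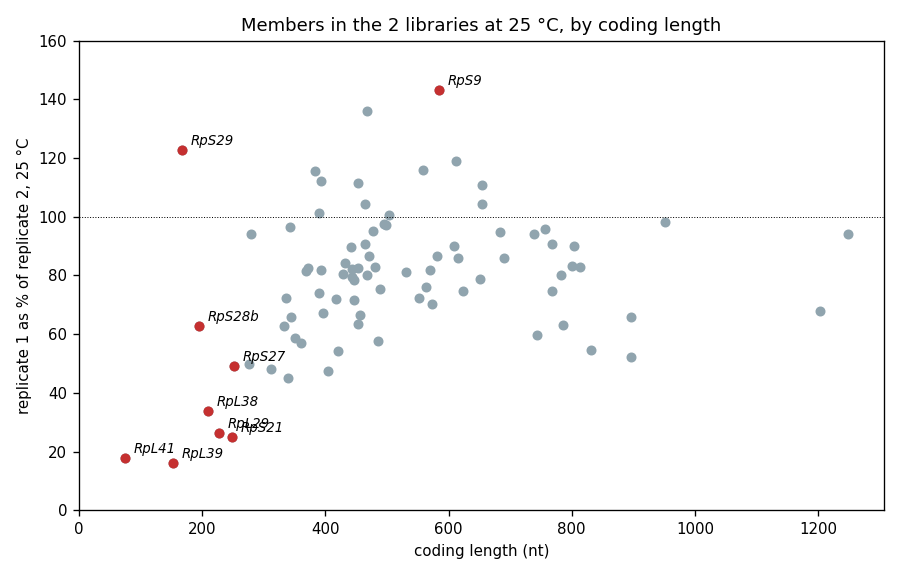
Normalized reads of each ribosomal protein gene in 25 °C replicate 1 as a percent of 25 °C replicate 2, against coding length in nt (points; red, genes under 260 nt and RpS9). RpL41, RpL39, RpL29, RpL38 and RpS21 lie between 16.0% and 33.7%, while RpS29 (122.7%) and RpS9 (143.1%) lie above 100%.

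Calls and the pattern of the shallow libraries were set side by side. Both are computed from the same values, so they are not independent and no conclusion is drawn from their overlap. RpS27A, RpS29 and RpL40 were lower in the shallowest library of all 4 groups, and all 3 were called in at least 1 comparison. Of the 54 genes that were higher in the shallowest library of all 4 groups, 2 were called anywhere, and 14 of the 85 were called in all. RpLP2 was among those that followed it, with 109607 normalized reads in pre-treatment replicate 3 against 78990 and 52763, and with 121529 in 25 °C replicate 2 against 54596 in replicate 1. RpLP0, the core of the stalk that RpLP1 and RpLP2 bind, ranged only from 44241 to 62758 over all libraries. RpLP0 was 0.32 higher on the log2 scale at 29 than at 18 °C with limma's adjusted p = 0.0371 and was under the fold threshold.

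The low paralogues together made up 0.353% ± 0.0204 (SD, n = 3) of the summed ribosomal protein values before treatment and 0.245% ± 0.00415 (n = 3) at 18 °C. Their share was 0.325% ± 0.0212 (n = 2) for flies from 25 °C, and for 29 °C it was 0.343% ± 0.0159 (n = 3). Most of this sum was RpL24-like, and its ratio to RpL24 was 20.0% to 25.9% before treatment, 13.5% to 16.4% at 18 °C, 18.9% to 24.3% at 25 °C and 21.5% to 24.7% at 29 °C. The 18 °C range was thus below all others. RpLP0-like, related to a yeast assembly factor of the large subunit (Mrt4), stood at 1.03% to 2.43% of RpLP0 over all libraries, and its values of 554 to 1073 before treatment, 616 to 791 at 18 °C, 602 to 807 at 25 °C and 713 to 769 at 29 °C overlapped in all groups.

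RpS15Ab held 1025 to 1567 normalized reads over all libraries, 2.34% to 4.55% of RpS15Aa. RpS10a and RpS5b are known for expression in the germ line. RpS10a held 169 to 552 normalized reads and RpS5b 20.5 to 79.9, which was 0.061% to 0.184% of RpS5a. None of these low paralogues other than RpL24-like was called in any comparison. Of 31 testis and male germ line markers 23 were in the table, 20 of them at a mean of 10 or more, and their summed level of 3152 to 3993 normalized reads overlapped between groups. The germ cell marker vas held 8 to 35 normalized reads and bam 2 to 42.

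**Figure D5:**
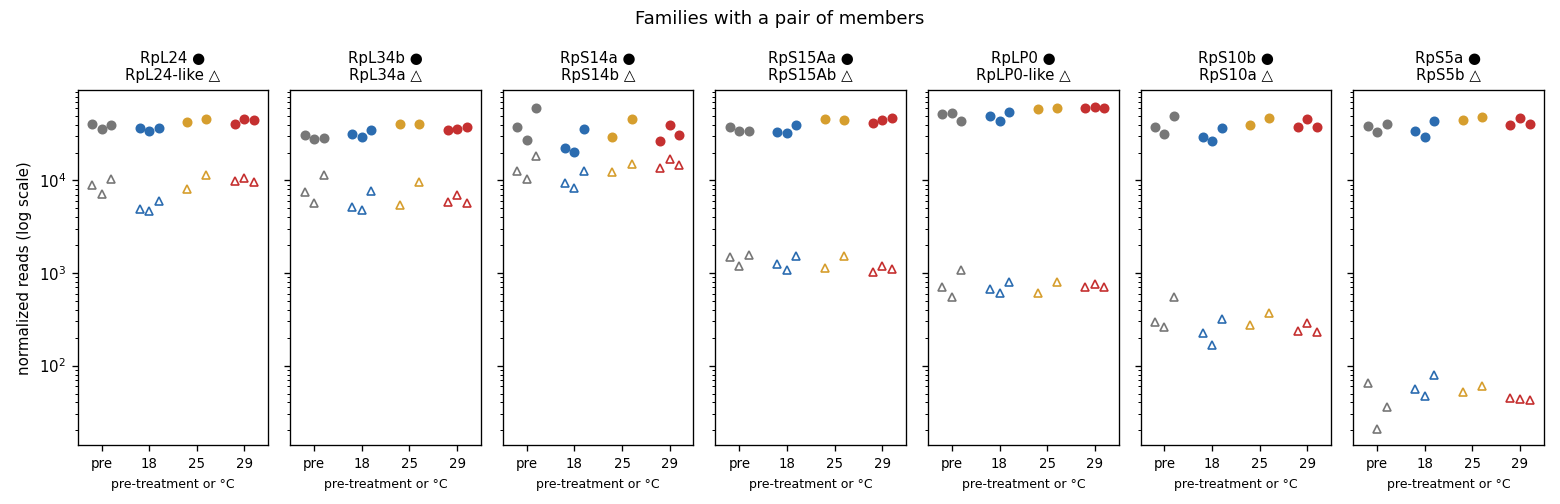
Normalized reads on a log scale by library for 7 families that hold a pair of genes (filled circles, the more abundant gene; open triangles, the other), for pre-treatment flies and flies kept at 18, 25 and 29 °C. RpS14b and RpL34a lie within a factor of 10 of their partners, and RpS5b lies lowest, at 20.5 to 79.9 normalized reads.

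In the families with a pair of major genes, RpS14b was at 30.3% to 37.9% of RpS14a before treatment, 35.6% to 42.1% at 18 °C, 32.4% to 42.0% at 25 °C and 42.6% to 50.2% at 29 °C. The ratio at 29 °C was above that in every other library. RpS14a and RpS14b lie side by side on the X chromosome and both encode 151 amino acids, so the assignment of reads between them is uncertain. RpL34a was at 20.1% to 39.6% of RpL34b before treatment and at 13.4% to 23.4% in all exposed groups, with overlap.

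Other genes of the translation machinery were followed in lists that were chosen with results of these libraries known, so that their counts are descriptions. The small subunit genes sta and Rack1, which the naming rule leaves out, were both called higher at 29 than at 18 °C. The gene sta held 36376 to 53121 normalized reads at 18 °C and 68033 to 76036 at 29 °C (1.61-fold, limma's adjusted p = 0.00791), and Rack1 30756 to 41811 and 51580 to 56037 (1.46-fold, adjusted p = 0.00608). Neither was called in another comparison.

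Of 40 translation initiation and elongation factors, 7 were called higher and 0 lower at 29 than at 18 °C, against 5.36% and 5.29% of all genes, with a median log2 fold change of 0.23 against -0.00 over all genes. The 4 with the lowest adjusted p were eIF3l and eIF3h, which are subunits of the initiation factor that binds the small ribosomal subunit, pix, the fly ABCE1 that splits ribosomes for reuse, and the termination factor gene eRF1. The libraries of eIF3l ranged from 13362 to 13923 normalized reads before treatment, 7216 to 8492 at 18 °C, 10932 to 11747 at 25 °C and 12100 to 13210 at 29 °C, with 18 °C below all others. Against pre-treatment 6 of the 40 were called lower at 18 °C (among them eIF3l, eIF3h, pix and eEF1alpha2) and 0 higher, against 4.44% and 4.69% of all genes. Against 25 °C 3 were called lower at 18 °C (eIF3l, eIF3h and pix), with 1.68% of all genes lower, and in the other comparisons 0 were called.

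Of 40 ribosome biogenesis factors, 2 were called higher and 0 lower at 29 than at 18 °C, a share close to the 5.36% of all genes called higher. Non1, whose yeast counterpart Nog1 is a GTPase that acts with Rlp24 on the precursor of the large subunit, held 29379 to 32347 normalized reads before treatment, 16292 to 19822 at 18 °C, 33222 to 36456 at 25 °C and 38647 to 43027 at 29 °C. It was 2.28-fold higher at 29 than at 18 °C (log2 fold change 1.20, limma's adjusted p = 2.09e-05), and it was called lower at 18 °C than before treatment and than at 25 °C. As with RpL24-like, every library at 18 °C lay below every other library. The other was nom, at 230 to 261 normalized reads at 18 °C and 393 to 484 at 29 °C.

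Of 33 regulators of ribosomal protein synthesis and growth, 3 were called higher at 29 than at 18 °C (Myc, crc and Maf1), 2 at 25 °C against pre-treatment (Myc and Thor) and 5 at 29 °C against pre-treatment (among them Myc, Xrp1, Irbp18 and crc), with 0 lower in each. Over all genes 5.36%, 2.77% and 5.92% were called higher in these comparisons. Myc, a transcription factor that raises ribosome production, held 3346 to 3537 normalized reads before treatment, 3575 to 4245 at 18 °C, 4555 to 5294 at 25 °C and 5496 to 6033 at 29 °C, which is an order without overlap. Xrp1 and Irbp18 encode partner transcription factors that act in flies short of a ribosomal protein, crc encodes the fly ATF4, and Thor encodes the inhibitor of translation initiation 4E-BP. Sesn alone was called higher at 18 °C than before treatment, against 4.69% of all genes. The insulin receptor gene InR alone was called lower at 18 than at 25 °C, against 1.68% of all genes.

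Summed marker levels of other tissues also differed between some groups, while the genes of a list did not all move alike. The summed level of 13 muscle genes was 598348 to 711697 normalized reads before treatment, 373350 to 395596 at 18 °C, 435918 to 498365 at 25 °C and 488787 to 491726 at 29 °C, and all 13 were detected. The 10 fat body genes summed to 792664 to 875675 before treatment, 905582 to 1073480 at 18 °C, 837100 to 921638 at 25 °C and 735293 to 929330 at 29 °C. Most of this sum was apolpp, at 682726 to 865547 over all libraries. The gene to held 117227 to 189579 at 18 °C and 45248 to 60827 before treatment. Lsp1beta went the other way, at 1610 to 1953 at 18 °C and 12072 to 34055 in the other groups. The 9 haemocyte genes summed to 25229 to 28325 before treatment and 21816 to 23227 at 18 °C. They summed to 24042 to 24561 at 25 °C and 25121 to 26932 at 29 °C, lowest at 18 °C without overlap. Of these genes only Hml and NimC1 were themselves lowest at 18 °C without overlap. Pxn held 7174 to 7567 at 18 °C and 6423 to 7015 at 25 and 29 °C. The gene srp held 4456 to 5630 at 18 °C and 2527 to 3754 before treatment. The 10 genes of neurons, photoreceptors and glia summed to 1481490 to 1514470 before treatment and 1510480 to 1545220 at 18 °C. They summed to 1606370 to 1635680 at 25 °C and 2005280 to 2132990 at 29 °C, highest at 29 °C without overlap. Most of this sum was ninaE, at 903277 to 906835 before treatment and 1366690 to 1483760 at 29 °C. Also highest at 29 °C was trp. The glial genes repo, Eaat1 and nrv2 were lowest at 29 °C, with nrv2 at 13681 to 13895 against 22635 to 31836 before treatment. From pre-treatment to 29 °C, brp and Syt1 were lower, nSyb was higher, and elav and norpA overlapped. The accessory gland and ejaculatory organ list, with 6 of 14 genes in the table, summed to 26766 to 38886 before treatment and 19186 to 23749 at 18 °C. It summed to 26146 to 34719 at 25 °C and 20977 to 27341 at 29 °C. Nearly all of this was Est-6, at 18521 to 37745 normalized reads over all libraries. Acp36DE held 396 to 1003, and the remaining genes had means of 18.5 to 96.5, so the sum describes Est-6. The part of tissue composition in the differences between groups was not tested.

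CircRNAs were listed for RpS27A and RpL3 alone among the 85 genes, with 37 and 53 head-to-tail junction reads over all 11 libraries. These counts are too low to compare between groups.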

How the data were processed

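Directional total RNA libraries were made from male CantonS heads after rRNA removal. Per the labels and methods, the authors aligned linear reads to dm6 with STAR, assigned them to genes with featureCounts and applied DESeq2 size factors. Versions and the strand setting are not given in the sources used here. The deposited values are therefore a normalized signal per gene and library. Each library moved in steps of 1 read. Division by that step left 100% of values whole within 0.01, and the reads recovered in this way gave the depth and the input of edgeR 4.0.16 and DESeq2 1.42.0. A floor of 3 reads, which covers counting error only, corresponds to 1.42 to 5.98 normalized reads by library. Greek letters were repaired in 350 symbols.

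Groups were taken from the labels. The 12676 linear genes that reached a mean of 10 were compared on the log2(value + 1) scale by limma 3.58.1 under R 4.3.3, with a mean-variance trend in the empirical Bayes step, all libraries in a single fit without covariates, and Benjamini-Hochberg adjustment over all of them. Fold changes so computed understate those of low genes. A call needed an adjusted p under 0.05 and a log2 fold change above 0.5 in size. Linear folds are group means divided by each other. The labels call the libraries biological replicates, so p-values reflect the variation among these libraries alone. The limma step was checked on simulated counts drawn independently for each library. Those counts lack the shifts shared by the shallow libraries, so the check does not cover them.

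Gene positions, coding lengths and overlaps came from Ensembl release 115 (BDGP6, the dm6 assembly), and all 85 genes matched. Promoter and protein sequences were not analysed here. Any of the 85 genes could be named. Those given in full were the genes called in any comparison, the largest fold changes of major genes in either direction (up to 5 each), the 6 highest means and families with a pair of members. From each list up to 4 called genes were named per comparison, by adjusted p. Some results for single genes are not reported here, while counts and medians cover all 85. The genes and lists were chosen with earlier results of these data known. Alternatives were other pseudocounts, filters and scalings, edgeR, DESeq2, fits of the compared groups alone, a replicate block, a depth covariate and leaving out each library. Leaving out the shallowest library of each group was added after the data were seen.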

Additional observations from a re-analysis of the deposited data

Results flagged for a closer look

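RpL24-like and RpS3 stood out because their change since pre-treatment differed between flies kept at 29 °C and flies kept at 18 °C by a test of the difference itself. For RpL24-like the change at 29 °C minus that at 18 °C was 0.97 on the log2 scale (limma's adjusted p = 0.00213), with 3 of 3 libraries at 29 °C above all at 18 °C. For RpS3 it was 0.52 (limma's adjusted p = 0.00881), also with 3 of 3 libraries above. Both changes are measured against the same pre-treatment libraries, so the difference is that between the 29 and 18 °C groups themselves. No group had more than 3 libraries, so single libraries were not screened as outliers.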

How the results depend on the processing

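Of 132 counts of calls under alternatives, 103 stayed within 1.5 times the value reported, and of 132 medians 122 moved by less than the SD between libraries (0.11). Many of these medians could not move, as in fits of the compared groups alone or without a library of a group outside the comparison. The tally of medians is therefore not a measure of stability. No called gene changed direction. For 29 vs 18 °C, 5 genes were called after scaling to the library sum, 4 with DESeq2, 6 in a fit of these groups alone and 10 without the shallowest libraries. For 25 °C vs pre-treatment it was 0 with these groups alone and 18 with the depth covariate (median 0.39). For 29 °C vs pre-treatment it was 16 after scaling to the library sum and 16 with the depth covariate (median 0.42). For 18 °C vs pre-treatment the depth covariate gave a median of 0.28, and 5 were called without the shallowest libraries. Without these libraries 10 were called for 29 vs 25 °C (median 0.084) and 11 for 18 vs 25 °C, where 0 were called with these groups alone. The causes were not tested.

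Leaving out each library in turn gave 1 to 7 calls for 29 vs 18 °C (median 0.15 to 0.31). It gave 6 to 10 for 29 °C vs pre-treatment (0.08 to 0.27) and 1 to 4 for 18 °C vs pre-treatment (-0.12 to 0.05). For comparisons with 25 °C, calls were counted only where both 25 °C libraries were kept, while medians cover all these fits. The counts were 3 to 9 for 25 °C vs pre-treatment (median 0.022 to 0.40), 0 for 29 vs 25 °C (-0.17 to 0.13) and 0 to 3 for 18 vs 25 °C (-0.40 to -0.14). Over all genes, 8.02% to 11.8% were called in these fits for 29 vs 18 °C. The same shares were 8.98% to 16.1% for 29 °C vs pre-treatment and 5.66% to 11.2% for 18 °C vs pre-treatment. With both 25 °C libraries kept, they were 4.32% to 6.26% for 25 °C vs pre-treatment. They were 0.3% to 0.915% for 29 vs 25 °C and 1.64% to 3.94% for 18 vs 25 °C. Where 1 library remained at 25 °C, it was assumed to vary like the other groups. The count of 7 for 29 vs 18 °C was that without 18 °C replicate 3.

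Replicate numbers did not pair the samples, with correlations of deviations from -0.47 to 0.47 over 15 pairs and 6 above 0.1. With a replicate block 5 genes were called for 25 °C vs pre-treatment (4.05% of all genes) and 3 for 29 vs 18 °C (10.1%). The other counts did not change. Depth limits RpS5b most, since 3 reads correspond to as many as 5.98 normalized reads.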
